A study of Drosophila melanogaster with 16 samples.

Results

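The genes described here encode the cytosolic factors that start, extend and end protein synthesis. They were taken as every gene whose FlyBase ID pairs with a symbol starting eIF, eEF or eRF. The gene name table holds 54 such symbols, and 51 of them were found among the 15682 genes of the deposited tables. Of these, 43 are initiation factors (eIF), 6 elongation factors (eEF) and 2 release factors (eRF). The IDs of eEF1alpha1, eEF5 and eIF4E3 were not matched and these genes were not analysed here.

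RNA came from whole Drosophila melanogaster embryos of both sexes, collected from 0 to 2 hr or from 2 to 4 hr after laying, with 4 libraries of each genotype at each time and 16 libraries in all. In the group named MTD control, the mothers carried only the 3 germline Gal4 drivers, which are P{nos-Gal4-VP16}, P{COG-Gal4:VP16} and, as a further insertion, P{Gal4-nos.NGT}40. In the group named clamp RNAi, they carried a single dose of the same drivers, the X chromosome markers y[1] sc[*] v[1] and the hairpin transgene P{TRiP.GLC01858}attP2 against clamp, a zinc finger protein of GA-rich DNA. All mothers were mated to yw males. The drivers act in the female germline, so the hairpin reaches the RNA supplied to the egg, and the controls carry no hairpin of their own. Each collection has a comparison table of a condition B against a condition A, and no header or label ties either letter to a genotype. In the authors' deposited table, Clamp had a log2 of B over A of -6.04 at 0-2 hr and -5.28 at 2-4 hr, so B is the condition with less Clamp RNA. For each gene the tables give the mean of the normalized read counts of all libraries, the ratio of B to A, its log2 and the authors' DESeq p-value adjusted over all genes. They give no value per library, so neither the depth nor the spread of the libraries can be shown, and no label says that libraries came from separate crosses. The p-values therefore measure only the spread between these libraries. Condition levels below were worked out from the authors' deposited mean and fold, with equal numbers of libraries in A and B. "Called" means an adjusted p under 0.05.

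Translation starts when eIF2, loaded with GTP and the initiator tRNA, joins the small ribosomal subunit together with eIF1, eIF1A, eIF3 and eIF5. The eIF4 factors bring in the capped mRNA, eIF4E holding the cap, eIF4A unwinding the leader and eIF4G linking them to eIF3. After the start codon is found, eIF5B helps the large subunit to join, and eIF2B reloads eIF2 with GTP. The eEF1 complex then delivers each aminoacyl-tRNA, eEF2 moves the ribosome along, and eRF1 with eRF3 releases the finished chain. In the early fly embryo these factors are first made from RNA that the mother supplied, part of which is cleared when the zygotic genome is switched on.

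The collections held the RNAs that their stage calls for. Of 9 maternal RNAs looked at, among them smg, Hsp83 and osk, each had a level of at least 3158 in either condition at 0-2 hr. All 12 early zygotic RNAs, among them slam, bnk and Sry-alpha, stood higher at 2-4 hr than at 0-2 hr, by log2 2.51 to 4.59 more than the median gene in A and by 1.91 to 4.40 in B. Between the conditions, 9 of the 12 had a negative log2 of B over A at 0-2 hr (median -0.36, none called and 1 at an unadjusted DESeq p under 0.05) and 10 of 12 at 2-4 hr (median -0.56, 4 called lower and 1 higher) in the authors' deposited table. Over all genes with a mean of at least 20, log2 was negative in 3595 of 7037 at 0-2 hr. At 2-4 hr it was negative in 3746 of 7399, with 15.4% called lower and 13.1% higher. The part of these early zygotic differences in the results below was not tested. Muscle RNAs of late embryos were also present, and more so in A. Over 14 such genes, Act57B and bt the most abundant at both times, the summed level at 0-2 hr was 2960 in A and 319 in B, and at 2-4 hr it was 4232 in A and 279 in B. DESeq called none of the 14 at either time in the authors' deposited table, and none had an unadjusted p under 0.05. Their part in the results below was not tested. Eggshell RNAs summed to 476 in A and 455 in B at 0-2 hr, but the genes were far apart in opposite directions: the chorion RNA Cp38 stood at 2.94 in A and 248 in B and Cp36 at 0.94 and 127, while the vitelline membrane RNA Vm26Aa stood at 135 in A and 10.3 in B and Vm26Ab at 133 and 2.65. At 2-4 hr the list summed to 59.9 in A and 31.8 in B. Eggshell genes had none of 9 called in the authors' deposited table and 2 and 0 at an unadjusted p under 0.05. Of 11 testis and sperm genes, 9 had a mean of at most 3.53 at 0-2 hr and 4.24 at 2-4 hr. The other two were bam, called lower in B at both times with log2 -0.93 and -1.09 in the authors' deposited table, and mia, not called. In embryos taken whole, fewer cells of a type and less RNA per cell cannot be told apart.

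RNA of eIF6 differed most between the conditions of all factors called at either collection. The eIF6 protein binds the large ribosomal subunit and keeps it from joining the small one too early. At 0-2 hr its level was 626 in A and 1019 in B, and at 2-4 hr it was 239.7 in A and 634 in B. B was thus the higher condition at both times, and both conditions held less eIF6 RNA in the later collection. The authors' deposited table gave a 1.63-fold difference at 0-2 hr (log2 0.70, DESeq adjusted p 1.55e-07) and a 2.65-fold difference at 2-4 hr (log2 1.40, DESeq adjusted p 5.70e-19). Its log2 was higher than that of 95.7% of genes with a mean of at least 20 at 0-2 hr and of 97.9% at 2-4 hr. It was also the only member called with a change of at least 1.5-fold at either time. Measured against the median gene, eIF6 was lower at 2-4 hr than at 0-2 hr, with a log2 of -1.16 in A and -0.51 in B. Its exons overlap those of no other gene in the annotation. Whether the size of the eIF6 difference itself changed between the collections was not tested.

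Over the whole family, most changes were small. Among genes with a mean of at least 20, the share of members called was near that of all genes at 0-2 hr. At 2-4 hr it was below that of all genes, and the shares rest on only 11 and 7 calls. At 0-2 hr the authors' deposited table called 8 members higher and 3 lower in B of 47 tested, while 4 members were listed at 0 and had no test. Of all 13096 tested genes, 11.2% were called, 5.56% higher and 5.61% lower. Members are abundant, and among tested genes with a mean of at least 20 the shares were 20.1% in either direction, 9.82% higher and 10.3% lower, against 11 of 42 members (26.2%). At 2-4 hr 4 members were called higher and 3 lower of 51 tested in the authors' deposited table, where 15.5% of 14245 tested genes were called, 7.38% higher and 8.14% lower. Among genes with a mean of at least 20 the shares were 28.5%, 13.1% and 15.4%, against 7 of 42 members (16.7%). Over all tested genes the members' share was 23.4% at 0-2 hr and 13.7% at 2-4 hr. By direction, among those with a mean of at least 20, 8 of 42 members were called higher and 3 lower at 0-2 hr, and 4 higher and 3 lower at 2-4 hr. With p-values re-adjusted over genes with a mean of at least 20, 7 members were called higher and 3 lower at 2-4 hr. The share of all genes called after that re-adjustment was not worked out, so this count cannot be set against it. No test of the members as a list was made. In the authors' deposited table, the log2 of uncalled members with a mean of at least 20 lay between -0.17 and 0.33 at 0-2 hr and between -0.17 and 0.50 at 2-4 hr. Of the 13 members called at either time, 5 were called at both, 3 of them in the same direction and 2 in opposite directions. How many of all genes were called at both times, or in opposite directions, was not worked out. These counts therefore describe the members only.

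**Figure D1:**
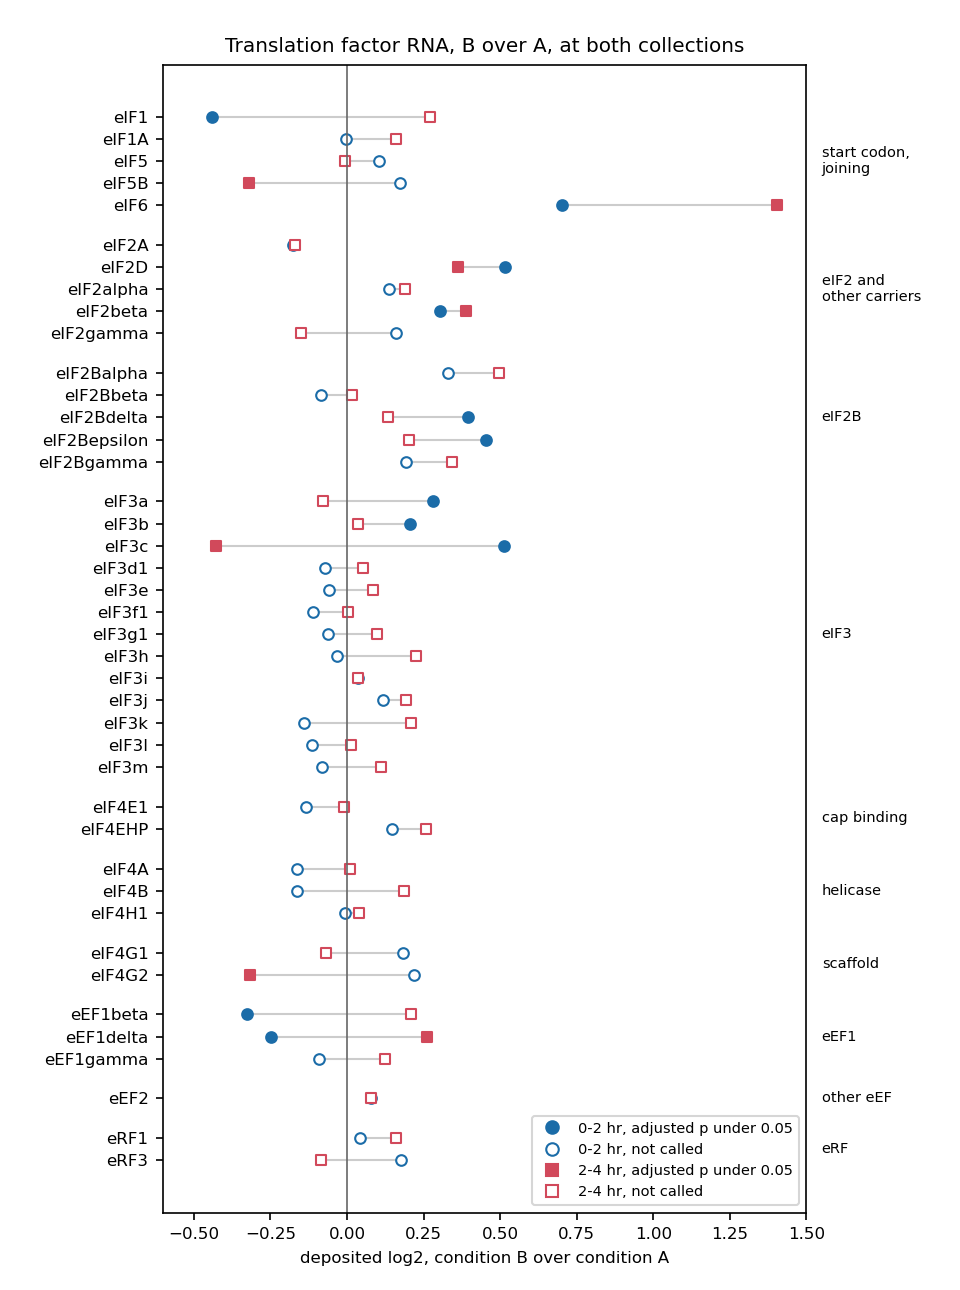
Deposited log2 of condition B over condition A (horizontal axis) for the 41 members with a mean normalized read count of at least 20 at both collections, ordered by role. Circles are 0-2 hr and squares 2-4 hr, filled where the authors' adjusted p is under 0.05; eIF6 lies farthest to the right at both times, at 0.70 and 1.40, and most other members lie within 0.5 of 0.

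Of the factors for start codon selection and subunit joining other than eIF6, eIF1 was called at 0-2 hr and eIF5B at 2-4 hr, both lower in B. The eIF1 protein guards start codon choice on the small subunit. Its level at 0-2 hr was 3055 in A and 2251 in B, and at 2-4 hr 1781 in A and 2151 in B. The authors' deposited table called eIF1 lower in B at 0-2 hr (log2 -0.44, DESeq adjusted p 0.0176) and left it uncalled at 2-4 hr (log2 0.27, DESeq adjusted p 0.375). Its partner eIF1A and the GTPase activator eIF5 were not called at either time, with log2 values between -0.01 and 0.16 in the authors' deposited table. In the annotation, which is of a later build, eIF5 shares 80.8% of its exon length with CG46312 on the same strand. CG46312 was not among the genes of the deposited tables, so how far this overlap bears on the eIF5 value is unknown. The joining GTPase eIF5B had a level of 2695 in A and 3038 in B at 0-2 hr, which was not called. At 2-4 hr its level was 2097 in A and 1682 in B, called lower in B in the authors' deposited table (log2 -0.32, DESeq adjusted p 0.0179). Less the median of all genes of like exon length, a setting described with exon length and chosen after seeing the data, eIF5B lay at 0.03 at 2-4 hr and eIF1 at -0.18 at 0-2 hr.

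The eIF2 heterotrimer was called through its beta subunit alone. The eIF2beta level was 2259 in A and 2787 in B at 0-2 hr and 564 in A and 738 in B at 2-4 hr, so B was higher at both times while the RNA declined in both conditions. The authors' deposited table gave log2 0.30 (DESeq adjusted p 0.00534) and log2 0.39 (DESeq adjusted p 0.0239). Its exons share 5.14% of their length with ver on the other strand, a gene called higher in B at 2-4 hr in the authors' deposited table (log2 0.67, DESeq adjusted p 0.00257), and the labels do not say whether reads were counted by strand. The alpha subunit, whose phosphorylation shuts down general initiation, and the gamma subunit, the GTPase, were not called. Their log2 values in the authors' deposited table were 0.14 and 0.16 at 0-2 hr and 0.19 and -0.15 at 2-4 hr. In the annotation, eIF2gamma shares 16.0% of its exon length with Su(var)3-9 on the same strand, so reads of the pair may have been divided between them. In the authors' deposited table Su(var)3-9 was called lower in B at both times, with log2 -0.58 and -0.79.

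Of the factors that can carry tRNA to the small subunit outside the eIF2 route, eIF2D was called and eIF2A was not. The eIF2D level was 399 in A and 571 in B at 0-2 hr, and 457 in A and 588 in B at 2-4 hr. The authors' deposited table called eIF2D higher in B at both times, with log2 0.52 (DESeq adjusted p 0.00534) and log2 0.36 (DESeq adjusted p 0.0471). In the authors' deposited table the log2 of eIF2A was -0.17 at both times (DESeq adjusted p 0.174 and 0.336).

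Of the 5 subunits of eIF2B, the exchange factor of eIF2, the authors' deposited table called eIF2Bdelta and eIF2Bepsilon higher in B at 0-2 hr and none at 2-4 hr, where 1 had an unadjusted DESeq p under 0.05. Of all genes with a mean of at least 20, 20.1% were called at 0-2 hr and 28.5% at 2-4 hr. With 5 subunits, these counts are too small to be set against those shares. The epsilon subunit carries the exchange activity. Its level at 0-2 hr was 504 in A and 690 in B (log2 0.45, DESeq adjusted p 0.00846 in the authors' deposited table). Its exons share 6.25% of their length with mip130 on the other strand. The regulatory subunit eIF2Bdelta stood at 1189 in A and 1563 in B (log2 0.39, DESeq adjusted p 0.00151 in the authors' deposited table). The other 3 subunits had log2 values from -0.08 to 0.33 at 0-2 hr, and all 5 subunits had values from 0.02 to 0.50 at 2-4 hr, in the authors' deposited table. eIF2Balpha had the highest of these, 0.50, with a DESeq adjusted p of 0.0710.

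In the eIF3 complex, the scaffold that holds the other factors on the small subunit, 3 of 13 subunits with a mean of at least 20 were called at 0-2 hr (23.1%), near the 20.1% of all such genes. The large core subunits eIF3a, eIF3b and eIF3c were those called, all higher in B in the authors' deposited table. The eIF3a level was then 4495 in A and 5460 in B (log2 0.28, DESeq adjusted p 0.00366), and that of eIF3b 6508 in A and 7499.9 in B (log2 0.20, DESeq adjusted p 0.0403). At 2-4 hr neither was called, with log2 -0.08 for eIF3a and 0.04 for eIF3b. The other 10 subunits with a mean of at least 20 were not called and had log2 values from -0.14 to 0.12 at 0-2 hr and from 0.0048 to 0.23 at 2-4 hr in the authors' deposited table.

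RNA of eIF3c was called in opposite directions at the collections. Its level was 3438 in A and 4901 in B at 0-2 hr, and 5403 in A and 4016 in B at 2-4 hr. The order of the conditions was thus turned round. The authors' deposited table gave log2 0.51 (DESeq adjusted p 0.0218) at 0-2 hr and log2 -0.43 (DESeq adjusted p 0.00614) at 2-4 hr. The difference between the times was not tested. In the annotation its exons overlap those of no other gene.

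Cap complex members with a mean of at least 20 had log2 values from -0.16 to 0.22 at 0-2 hr. At that time the authors' deposited table called none of the cap-binding, helicase or scaffold members, with 3 at an unadjusted DESeq p under 0.05. The cap-binding protein eIF4E1 stood at 11541 in A and 10510 in B at 0-2 hr and at 5114 in A and 5081 in B at 2-4 hr. eIF4EHP, which binds the cap but not eIF4G and represses maternal mRNAs such as caudal, was uncalled, and its log2 in the authors' deposited table was 0.15, then 0.26 (DESeq adjusted p 0.326 and 0.0824). The helicase eIF4A had log2 values of -0.16 and 0.0084 there, and its helpers eIF4B and eIF4H1 lay between -0.16 and 0.19. The authors' deposited table gave the scaffold eIF4G1 a log2 of 0.18 and then -0.07, neither called. eIF4G2, an eIF4G paralog with a role in the male germline, had a level of 6224 in A and 7246 in B at 0-2 hr and of 4028 in A and 3238 in B at 2-4 hr. Only the later difference was called in the authors' deposited table (log2 -0.32, DESeq adjusted p 0.0254). At 0-2 hr the log2 was 0.22 (DESeq adjusted p 0.341). Its exons share 8.56% of their length with CG33111 on the same strand. Less the median of its exon length class, eIF4G2 lay at 0.03 at 2-4 hr.

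Among the matched elongation factors, eEF2, eEF1gamma and eEF1beta had the highest means at both times. eEF1alpha1 and eEF5 were not matched, so the set is incomplete. For elongation factors with a mean of at least 20, log2 lay from -0.33 to 0.15 at 0-2 hr and from -0.01 to 0.26 at 2-4 hr. Of the eEF1 complex, the authors' deposited table called the exchange subunits eEF1beta and eEF1delta lower in B at 0-2 hr. The eEF1beta level was 13822 in A and 11031 in B then (log2 -0.33, DESeq adjusted p 5.11e-05), and 13341 in A and 15421 in B at 2-4 hr, which was not called (log2 0.21, DESeq adjusted p 0.114). The eEF1delta level was 4575 in A and 3855 in B at 0-2 hr (log2 -0.25, DESeq adjusted p 0.0140 in the authors' deposited table). At 2-4 hr it was 4540 in A and 5446 in B, called higher in B in the authors' deposited table (log2 0.26, DESeq adjusted p 0.0368). In both subunits B was the lower condition at 0-2 hr and the higher at 2-4 hr. Less the median of all genes of like exon length, eEF1beta lay at -0.07 and eEF1delta at 0.01 at 0-2 hr, and eEF1delta at 0.01 at 2-4 hr. The third subunit, eEF1gamma, was not called, and the authors' deposited table gave it a log2 of -0.09 and then 0.12. The translocase eEF2 was not called either, at log2 0.08 both times, with levels from 43612 to 54422. Neither release factor was called at either time in the authors' deposited table, where DESeq gave 1 and 0 an unadjusted p under 0.05. The log2 values there were 0.04 and 0.16 for eRF1, which reads the stop codon, and 0.18 and -0.08 for eRF3, its GTPase partner.

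**Figure D2:**
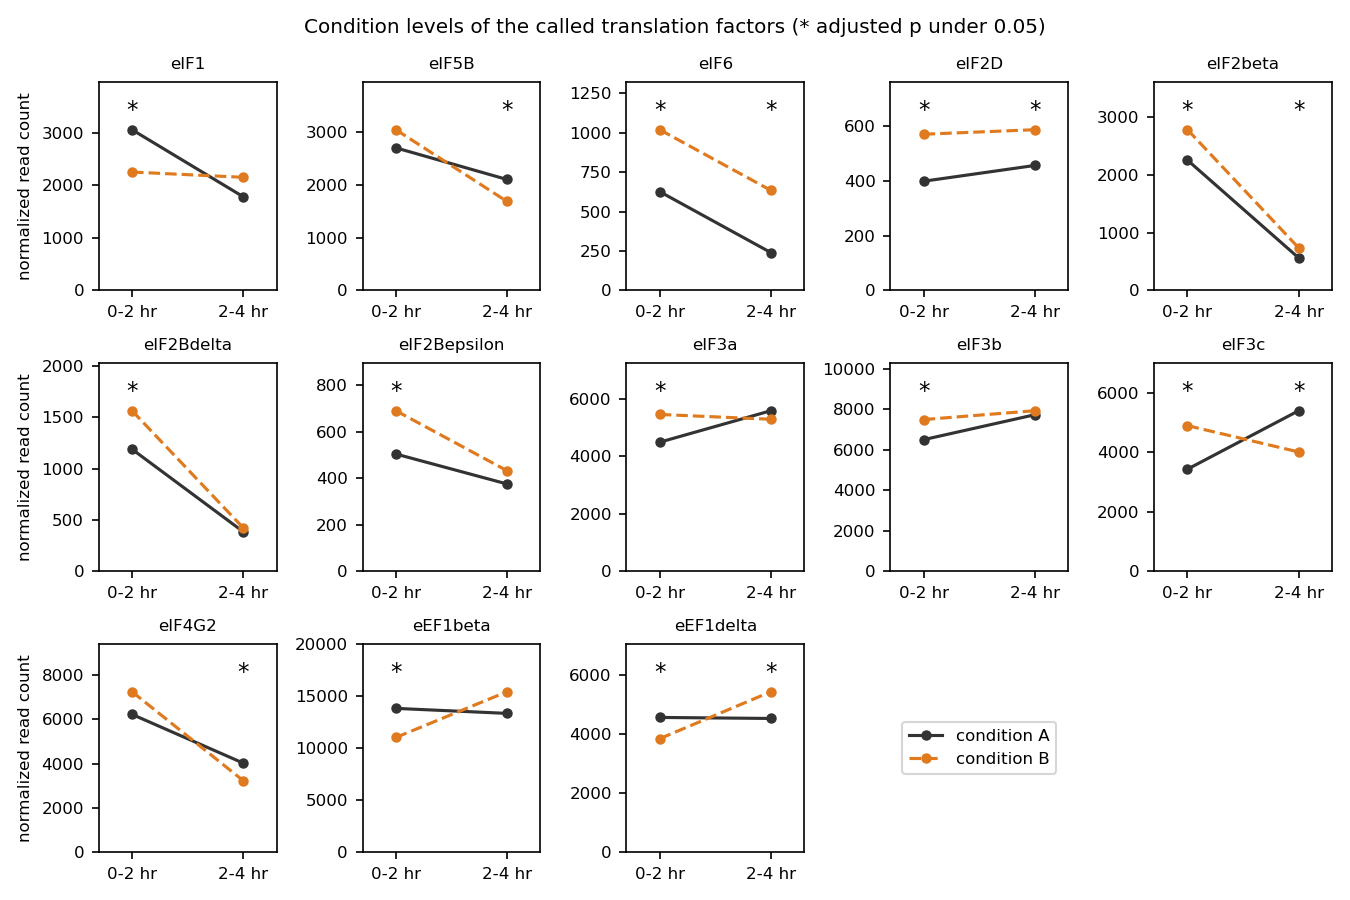
Levels of the 13 called members in condition A (solid, dark) and condition B (dashed, orange), in normalized read counts worked out from the deposited mean and fold, at 0-2 hr and 2-4 hr; each vertical axis starts at 0, no error is available, and an asterisk marks an adjusted p under 0.05. In eIF6, eIF2D, eIF2beta, eIF2Bdelta, eIF2Bepsilon and eIF3b the B line runs above A at both times, whereas the lines cross in eIF1, eIF5B, eIF3a, eIF3c, eIF4G2, eEF1beta and eEF1delta.

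Set side by side, initiation factors had a median log2 of 0.11 over 35 genes at 0-2 hr and elongation factors one of -0.09 over 5, a gap of 0.20, in the authors' deposited table. At 2-4 hr the medians were 0.09 over 35 and 0.12 over 5, a gap of -0.04. The median over all genes past the same minimum mean was -0.01 at both times. The gap at 0-2 hr was 0.062 when the release factors were counted with the elongation factors, 0.044 with no filter on the mean and 0.093 after subtraction of the exon length class median. That subtraction gave 0.018 at 2-4 hr. Medians of so few genes are given without a test.

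Exon length went along with these values. Among genes with a mean of at least 20, those with up to 1 kb of exon had a median log2 of -0.26 at 0-2 hr and 0.25 at 2-4 hr, and those with more than 4 kb had medians of 0.02 and -0.35. Spearman's rho between log2 and exon length was 0.20 over 6692 genes at 0-2 hr and -0.45 over 7037 at 2-4 hr. Over 42 members it was 0.34 and -0.64. The members of a table share its libraries, so these are descriptions. The called members with up to 1 kb of exon are eIF1, eEF1beta and eEF1delta, all lower in B at 0-2 hr, and those over 4 kb are eIF4G2 and eIF5B, both lower at 2-4 hr. Their values less the median of the length class, given with each gene, were all closer to 0. By the same subtraction, at 2-4 hr eIF3c lay at -0.40 and eIF6 at 1.27. For eIF2D and eIF2beta, in the class of 1 to 2 kb, the values were 0.53 and 0.31 at 0-2 hr and 0.23 and 0.25 at 2-4 hr. The part of exon length in the calls was not tested further.

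**Figure D3:**
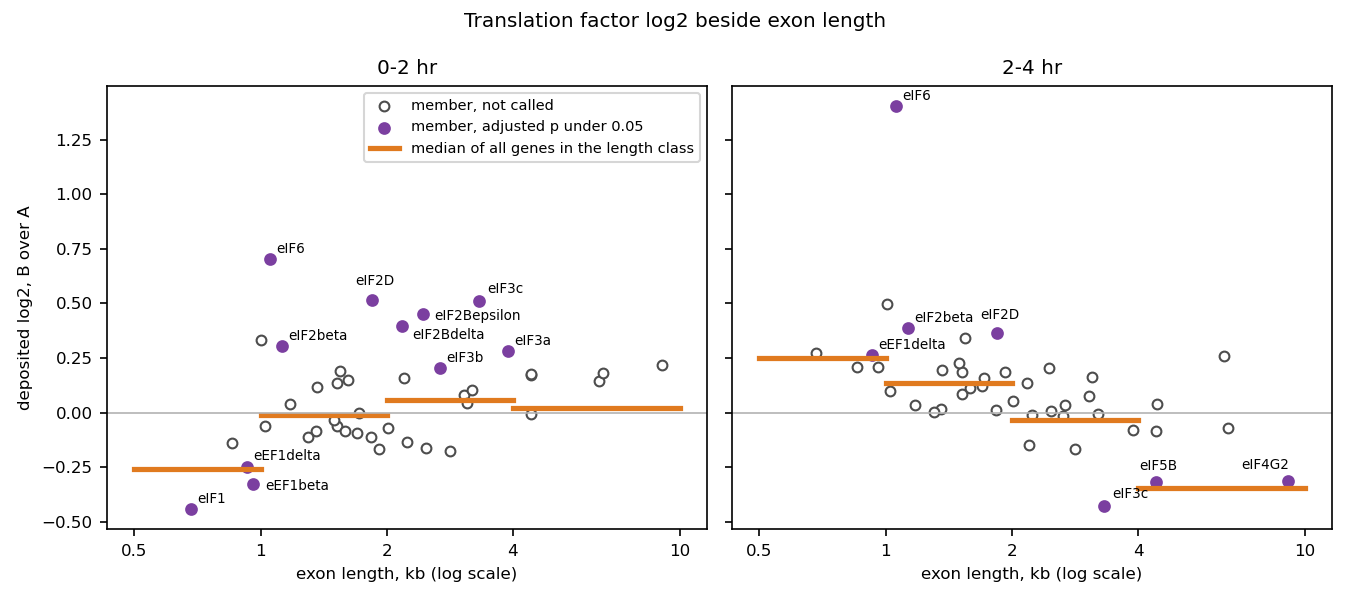
Deposited log2 of B over A against exon length in kb (log axis) for members with a mean of at least 20, at 0-2 hr (left) and 2-4 hr (right); filled points were called, and orange bars give the median of all genes in each length class. eEF1beta and eEF1delta at 0-2 hr and eIF4G2 and eIF5B at 2-4 hr lie near the bar of their class, eIF1 at 0-2 hr lies below it, and eIF6 lies well above it at both times.

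Between the collections the factors differed by complex: eIF3 and most elongation factors stood above the median gene, and eIF2 and eIF2B below it. The tables were normalized separately and no test of time is possible, so the changes are given against the median gene, whose log2 of 2-4 hr over 0-2 hr was -0.23 in A and -0.18 in B over 6940 genes. The 12 eIF3 subunits other than eIF3j were 0.20 to 0.88 above the median gene in A. In B 11 of them were above it, by up to 0.53, and eIF3c was at -0.11. The helicase eIF4A (0.36 in A and 0.48 in B), eEF2 (0.47 and 0.42) and eEF1gamma (0.27 and 0.44) also stood above the median gene. Without subtraction of the median gene, eIF3d1, eEF1beta and eEF1delta lay just below 0 in A, and eIF3a did so in B. All 5 eIF2B subunits and all 3 eIF2 subunits stood below it in both conditions, from -0.20 to -1.77 in A and from -0.35 to -1.74 in B. The eIF2beta level went from 2259 to 564 in A and from 2787 to 738 in B, lower than for the median gene by log2 1.77 and 1.74. eIF2Bdelta went from 1189 to 387 in A and from 1563 to 425 in B. By stage, the median of the change was 0.20 in A and 0.11 in B over 35 initiation factors, and 0.24 in A and 0.55 in B over 4 elongation factors. Without subtraction of the median gene, the initiation medians were -0.03 in A and -0.07 in B. eIF3j, a loosely bound subunit, went from 1901 to 490 in A and from 2063 to 561 in B, apart from all other eIF3 subunits.

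Among the 41 members with a mean of at least 20 at both times, those that lay farthest from equal change in A and B were eIF3c, eIF6 and eIF1. Against the median gene, eIF3c was at 0.88 in A and -0.11 in B, eIF6 at -1.16 and -0.51, and eIF1 at -0.55 and 0.11. The gaps follow from the calls already given, since both rest on the same values. Of the eIF4 group, eIF4E1, eIF4EHP, eIF4G1 and eIF4G2 were all below the median gene in both conditions, eIF4E1 at -0.95 in A and -0.87 in B and eIF4G2 at -0.40 and -0.98. The release factor eRF3 stood at -0.45 and -0.76, and eRF1 at 0.06 and 0.13.

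**Figure D4:**
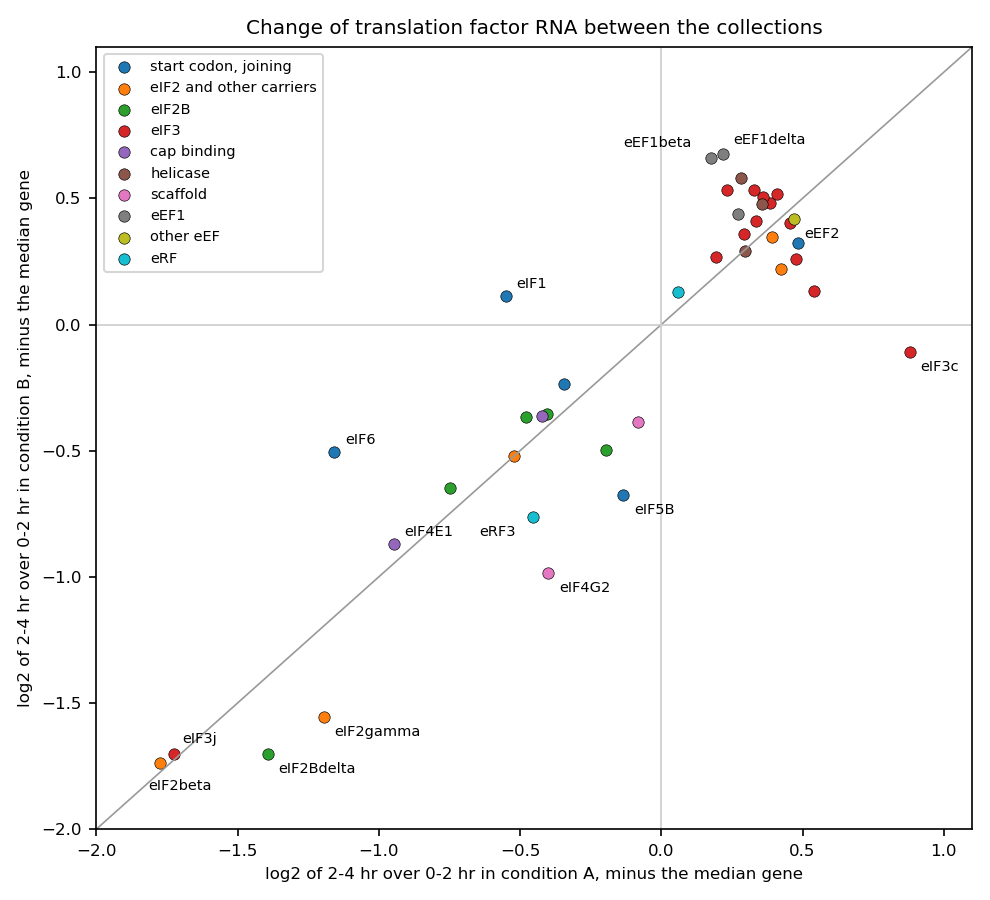
Change between the collections of the 41 members with a mean of at least 20 at both, as log2 of the 2-4 hr over the 0-2 hr level minus that of the median gene, in condition A (horizontal) and condition B (vertical); colours give the role and the diagonal marks equal change. Most eIF3, eEF and eIF4A points gather above 0 in both conditions, eIF2beta, eIF2Bdelta and eIF3j lie lowest on the vertical axis, and eIF3c, eIF6 and eIF1 lie off the diagonal.

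Levels between genes were compared per kb of exon, as the authors' deposited mean divided by exon length. At 0-2 hr eEF2 had 14671 per kb, eEF1beta 12944, eEF1gamma 11814 and eIF4A 8129. These were also the 4 highest of the matched members at 2-4 hr, from 9423 to 17342 per kb, and eEF1alpha1 was not matched. In the other groups the highest levels at 0-2 hr were those of eIF4E1 (4933 per kb), eIF1 (3896), eIF3l (2893), eIF2beta (2236), eIF4G1 (2010), eRF3 (1677) and eIF2Bdelta (633). The eIF3 subunits with a mean of at least 20 lay between 1256 and 2893 per kb at 0-2 hr. At 2-4 hr they lay between 1398 and 3254, apart from eIF3j at 386. The eIF2 subunits lay between 1196 and 2236 per kb at 0-2 hr and between 401 and 859 at 2-4 hr. The eIF2B subunits lay between 244 and 633, and then between 131 and 290.

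Several paralogs were listed at or close to 0, and a listed 0 is not read as absence, since the maternal RNA of cup was listed at 0 too. In the cap-binding family eIF4E1 led with 4933 per kb at 0-2 hr, eIF4EHP had 384, and eIF4E4, eIF4E5, eIF4E6 and eIF4E7 had at most 2.68. eIF4E4 and eIF4E7 were listed at 0 then. Of the paired eIF3 genes, eIF3d1 had a mean of 4536, eIF3f1 of 2209 and eIF3g1 of 2497 in the authors' deposited table for 0-2 hr, which listed eIF3d2 and eIF3g2 at 0 and gave eIF3f2 a mean of 1.89. The scaffold genes eIF4G1 and eIF4G2 were both abundant, at 2010 and 740 per kb. In all, 8 members had a mean under 20 at both times, at most 2.26 and 11.9, and none was called in the authors' deposited table. eEFSec, the factor for selenocysteine, had a mean of 36.8 at 0-2 hr and 10.3 at 2-4 hr there and was not called. eEF1alpha2 went from 7.77 to 99.7 in A and from 11.4 to 98.7 in B, which was 3.91 and 3.29 above the median gene, and was not called between the conditions. Its value is uncertain, since reads it shares with eEF1alpha1 may have been counted elsewhere.

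Other genes of the translation pathway were read from a list of 41, of which 35 were matched. The authors' deposited table called 4 of 34 tested higher and 4 lower in B at 0-2 hr, and 7 higher and 5 lower at 2-4 hr. These are 23.5% and 35.3% of those tested, near the 20.1% and 28.5% of all genes with a mean of at least 20. For the eIF2 kinases the authors' deposited table gave Gcn2 a log2 of 0.54 at 0-2 hr (DESeq adjusted p 0.0195) and 0.11, uncalled, at 2-4 hr. There the other kinase PEK was called at both times, with log2 0.48 and 0.32 (DESeq adjusted p 5.31e-07 and 0.00481). Gcn2, PEK, PPP1R15, crc, kra, DENR and MCTS1 were read as a single list, though not all of them act in eIF2 signalling. Of these 7, 2 were called higher at 0-2 hr and 5 at 2-4 hr in the authors' deposited table. There 9.82% and 13.1% of all genes with a mean of at least 20 were called higher. The 5 were PEK, the phosphatase subunit PPP1R15 (log2 0.35), crc (log2 0.27), which encodes the fly ATF4, kra (log2 0.35) and MCTS1 (log2 0.56), a partner of DENR in reinitiation.

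HBS1, a GTPase that rescues stalled ribosomes and is related to eRF3, was called higher in B at both times in the authors' deposited table (log2 0.85 and 0.82, DESeq adjusted p 7.51e-11 and 3.81e-08). Its partner pelo was not called, at log2 0.13 and 0.02. Among cap regulators at 0-2 hr the authors' deposited table called Thor, the 4E-BP that blocks eIF4E (level 247 in A and 124 in B, DESeq adjusted p 0.0110), Paip2 (log2 -0.26) and 4E-T (log2 -0.26) lower and bel, a DEAD-box helicase, higher (log2 0.41). At 2-4 hr it called bel (log2 -0.69), larp (log2 -1.05) and Larp4B (log2 -0.67) lower. Rack1, a protein of the small ribosomal subunit, was called lower at 0-2 hr (log2 -0.19) in the authors' deposited table. Of 6 matched TOR signalling genes, none was called at 0-2 hr and 1 had an unadjusted DESeq p under 0.05. At 2-4 hr Rheb was called higher (log2 0.31) and raptor (log2 -0.66) and rictor (log2 -0.49) lower in the authors' deposited table. The exon length class median was not subtracted for these other genes. Of those lower at 2-4 hr, larp, Larp4B, raptor and rictor have more than 4 kb of exon. The median log2 of that class was -0.35. It was -0.03 for 2 to 4 kb, the class of bel, and 0.14 for 1 to 2 kb, that of Rheb. PEK, with more than 4 kb, and crc, kra and HBS1, with 2 to 4 kb, were called higher. The part of exon length in these calls was not tested. None of 6 genes for modifying eEF2 or eEF5 was called, with 1 and 2 at an unadjusted DESeq p under 0.05. The regulator cup was listed at 0 at both times; its RNA is known to be supplied by the mother, so this 0 is not read as absence.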

How the data were processed

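RNA was extracted with Trizol from dechorionated embryos, and libraries were made with the NuGEN Ovation kit and Drosophila ribosomal RNA depletion, per the labels' protocols. Per the submitters' processing notes, TopHat2 2.0.13, HTSeq 0.5.4p3, DESeq and the dm3 genome were used, with no more detail given. The authors deposited 1 comparison table per collection. Its mean of normalized counts (a signal, not raw counts), its fold of B over A (a ratio), its log2 fold change and its p-values, raw and adjusted, are the authors' deposited values. The 4 columns of condition means were not used, because no header or label ties them to a genotype. Condition levels were worked out as 2M/(1+F) and 2MF/(1+F) from the mean M and fold F.

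Gene names, chromosome arms, exon lengths and exon overlaps came from annotation tables of a later build, matched by FlyBase ID, so no coordinates are given. Symbols were matched for 15001 IDs. Calls use the authors' DESeq p adjusted over all genes of a table, under 0.05, and medians and ranges use genes with a mean of at least 20. No test was run on the members, since no value per library was given. Depth per library is therefore unknown, and no interval was computed. The 2 tables were normalized separately. The scripts were tested on simulated tables with pandas 2.3.3 and numpy 2.4.6 under python 3.11.15; rank correlations used scipy 1.17.1. The members and lists were chosen with earlier results of these data known. Named genes were Clamp, every called member, the member with the highest mean per kb of exon in each role, the paralog families eIF4E, eIF4G, eEF1alpha, eIF3d, eIF3f and eIF3g, called genes of the other translation lists (at most 4 per direction and time) and at most 3 genes of each marker list. Further members of a complex, the overlapping genes, pelo, and the genes that complete a count were named after their values were seen. Alternatives were other thresholds, other minimum means, other scalings, other groupings of the release factors and, added after seeing the data, subtraction of the exon length class median.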

Additional observations from a re-analysis of the deposited data

How the results depend on the processing

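No paired analysis was possible because the deposited tables hold no value per library, and for the same reason leaving out a library could not be run. With an adjusted p under 0.01, 7 members were called at 0-2 hr and 2 at 2-4 hr, and with at least 1.5-fold as well as the call 1 member at each time. With an adjusted p under 0.1 the counts were 12 and 10, and with p-values re-adjusted over genes with a mean of at least 20 they were 11 and 10. The shares of all genes called at these other settings were not worked out, so the counts describe the members only. The gap between initiation and elongation at 0-2 hr was 0.044 with no filter on the mean, 0.062 with release factors counted as elongation and 0.093 after subtracting the exon length class median. The elongation median at 0-2 hr was 0.044 with release factors and 0.011 after that subtraction, and at 2-4 hr it was 0.014 after it. The same subtraction reversed eEF1delta at 0-2 hr (0.011) and eIF4G2 (0.031) and eIF5B (0.028) at 2-4 hr. For the change between collections in A, the initiation median was -0.033 on the deposited scale, 0.064 when scaled by condition sums and 0.00011 with no filter, and the elongation median was 0.017, 0.113 and 0.011. In B the initiation median was -0.066 on the deposited scale and -0.072 with no filter, and the elongation median was 0.37 and 0.26. A median counted as moved when it changed by over 0.1 on the log2 scale, since no replicate spread was available. The other medians and gaps under the alternatives moved by 0.1 or less. The cause of each change was not tested. Depth per library is unknown, so what it limits cannot be stated.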
